A study of Mus musculus with 22 samples.

Results

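The senescence and p53 checkpoint genes described here are Cdkn2a, Cdkn2b, Cdkn2c, Cdkn1a, Trp53, Mdm2, Ccng1, Gadd45a, Bax and Plk2. They were chosen by name, as every transcript row whose gene symbol is one of these 10, and they make up 13 rows and 10 of the 16271 genes found in all 4 RNA libraries. RNA was measured in primary mouse embryonic fibroblasts (MEFs), cultured cells taken from C57BL/6 embryos at E13.5 and used at passage 3 to 4, with no treatment named. One genotype was wild type (WT, Lsh+/+) and the other lacked Lsh (KO, Lsh-/-), a SNF2-type chromatin remodeller encoded by Hells, without which cells lose much of their DNA methylation. Each genotype had 2 libraries, here WT1, WT2, KO1 and KO2, which the labels call biological replicates without saying how many embryos gave the cells or whether a number marks a shared litter or day. The loss is constitutive, so cells of every type in a KO culture lack Lsh. The other 18 samples, on chromatin, are not analysed here.

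Values are RPKM, that is reads scaled to transcript length in kilobases and to library size, and the rows of 1 gene were summed. The libraries held between 122.5 and 176.6 M (mega) mapped reads, estimated from the size of 1 read in single-exon genes, and all 10 genes were among the 11149 tested. Hells, the targeted gene, was at 0.865 RPKM in WT1, 1.06 in WT2, 0.430 in KO1 and 0.550 in KO2, so that KO was at 0.497 of WT in replicate 1 and 0.521 in replicate 2. Its adjusted p was 1.0 in the limma fit with genotype only and 0.20 when the replicate number was added to the fit, and the labels do not say which exons are lost. The summed level of 10 fibroblast markers was between 2880 and 3100 RPKM in the 4 libraries, although by replicate number 6 of them rose and 3 fell, with Dcn at 3.88 RPKM in WT1 and 121 in WT2 and S100a4 at 277 and 35.6 (both chosen after their values were seen). The libraries stood apart by replicate number: replicate 1 lists 26886 rows and replicate 2 lists 21136. Replicate 2 differed from replicate 1 in 47.7% of the genes tested, with 35.8% called higher and 11.9% lower. The number thus marks both another culture and another processing of the tables, which cannot be told apart. None of the members is among the 5750 rows listed for replicate 1 alone. Genotypes are therefore compared within each replicate number as well as pooled for the members, and single libraries are given for other genes.

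Cdkn2a and Cdkn2b lie side by side and encode brakes on the cell cycle. Cdkn2a has 2 start sites and 2 unrelated products: p16Ink4a, which like the Cdkn2b product p15Ink4b and the Cdkn2c product p18Ink4c blocks the cyclin D kinases Cdk4 and Cdk6, and p19Arf, which frees p53 by binding Mdm2. The transcription factor p53, the product of Trp53, switches on Cdkn1a (the kinase inhibitor p21), Mdm2 (the ubiquitin ligase that removes p53), Ccng1, Gadd45a, Bax and Plk2. In cultured MEFs the Ink4-Arf locus is known to be silent or low at first and to be switched on with passage, when the cells stop dividing.

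The windows before both Cdkn2a start sites are shown because the transcripts read from them are described apart below. They are the 250 bases upstream of each RefSeq start in build GRCm38.p6, on the minus strand and 5′ to 3′, and capitals mark CpG dinucleotides.

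p19Arf start, chr4:89294620-89294869: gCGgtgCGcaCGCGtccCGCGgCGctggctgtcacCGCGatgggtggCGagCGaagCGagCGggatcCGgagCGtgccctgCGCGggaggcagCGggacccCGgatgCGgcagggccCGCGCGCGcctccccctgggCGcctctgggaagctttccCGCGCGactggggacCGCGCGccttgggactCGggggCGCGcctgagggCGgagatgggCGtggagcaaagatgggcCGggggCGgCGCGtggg
p16Ink4a start, chr4:89282193-89282442: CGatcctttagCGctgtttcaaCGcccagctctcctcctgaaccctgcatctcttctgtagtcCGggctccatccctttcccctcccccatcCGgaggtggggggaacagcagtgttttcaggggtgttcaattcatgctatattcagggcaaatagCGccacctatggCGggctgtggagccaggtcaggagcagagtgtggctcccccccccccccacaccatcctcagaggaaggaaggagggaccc

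The p19Arf window holds 40 CpG dinucleotides and 78.4% G and C, more CpG than 98.7% of the 32851 upstream windows of that length. The p16Ink4a window holds 7 CpG dinucleotides and 60.0% G and C, near the median of 6 CpG over all windows. The Cdkn2b window, at chr4:89311033-89311282, lies between them in CpG count, with 12. DNA methylation was not analysed here, and these counts describe the sequence alone.

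The upstream windows were also searched for the p53 half-site consensus, a motif of 10 bases that reads the same on both strands. At least 1 match was found in 6 of the 13 member windows, each of a different gene, and in 7.13% of all windows. Known p53 targets are among the names chosen, so the share among the members is not a result independent of that choice. The matches are shown with 10 bases on either side, on the gene's strand, with the half-site in capitals.

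Cdkn1a, chr17:29090918-29090947: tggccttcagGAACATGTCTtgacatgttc
Cdkn1a, chr17:29090896-29090925: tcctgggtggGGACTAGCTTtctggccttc
Trp53, chr11:69580274-69580303: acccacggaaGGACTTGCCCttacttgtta
Mdm2, chr10:117710925-117710954: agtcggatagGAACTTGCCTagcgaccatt
Ccng1, chr11:40755452-40755481: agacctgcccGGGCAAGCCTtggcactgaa
Gadd45a, chr6:67037428-67037457: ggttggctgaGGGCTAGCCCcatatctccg
Bax, chr7:45467080-45467109: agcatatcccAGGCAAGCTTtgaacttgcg

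Both Cdkn1a matches lie before its upstream start, 51 and 73 bases from it, and none before its downstream start. The windows of Cdkn2a, Cdkn2b, Cdkn2c and Plk2 held none. A match describes the letters of the window and does not show that p53 binds there.

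All 10 genes were expressed in every library. Cdkn1a, summed over its rows, had the highest mean, at 281 RPKM in WT1, 159 in WT2, 278 in KO1 and 156 in KO2, above 99.4% of the genes tested. Ccng1, a cyclin that p53 induces, came next at 273, 116, 262 and 160 RPKM in the same order of libraries, and the ranges of these genes overlapped. A clear step separated them from Plk2 (mean 60.6 RPKM), Cdkn2a (59.6), Cdkn2b (53.3), Mdm2 (50.8), Bax (32.9), Gadd45a (24.5) and Trp53 (22.0), each of which overlapped its neighbour in that order. Cdkn2c was the lowest in every library, between 0.982 and 6.77 RPKM, and its range did not reach that of Trp53. RPKM corrects for length, but the level of a gene with several rows is a sum, and how shared reads were split is not stated. The rank of Cdkn1a depends on this. Its higher row alone, at 186, 105, 183 and 102 RPKM in the same order of libraries, lay below Ccng1 in each.

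**Figure D1:**
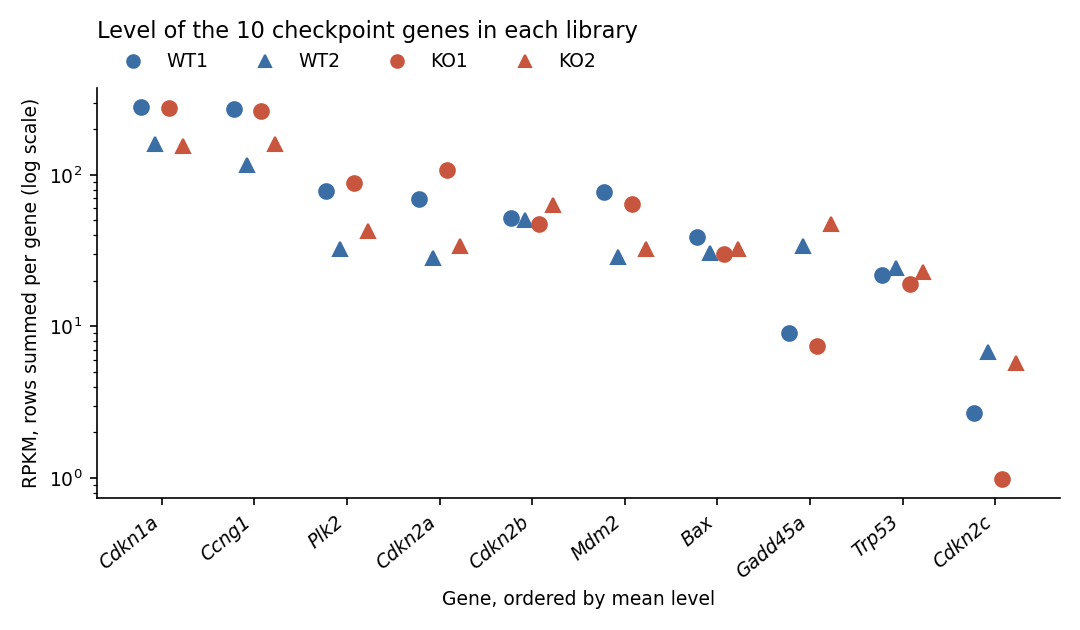
Level of each of the 10 checkpoint genes in the 4 libraries, as RPKM on a log axis, with genes ordered by their mean; circles are replicate 1, triangles replicate 2, blue WT and red KO, 1 point per library. Cdkn1a and Ccng1 lie highest and Cdkn2c lowest, and in most genes the points part by shape (replicate number) rather than by colour (genotype).

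Among the transcript rows of the members, the p16Ink4a row of Cdkn2a gave the widest genotype difference. Summed per gene, Cdkn2c (pooled log2 difference -0.67) differed more than Cdkn2a (0.45). The p16Ink4a row (NM_001040654, at 88920377 to 88928096 on the minus strand of chromosome 4 in mm9) was at 10.2 RPKM in WT1, 0.656 in WT2, 32.0 in KO1 and 1.90 in KO2. KO exceeded WT within each replicate number, 3.13-fold in replicate 1 and 2.90-fold in replicate 2, although both replicate 2 libraries lay below both of replicate 1. KO was at least 2-fold above WT within both numbers in 0.55% of the 13280 transcript rows tested. At the estimated depths these values stand for about 1348, 116, 3915 and 259 reads per kilobase in WT1, WT2, KO1 and KO2. Counting error at such levels is small beside the differences, but the error in splitting reads shared with the p19Arf row is unknown. The pooled difference of log2(RPKM + 0.5) was 1.33, with a limma SE of 1.69 with genotype only (adjusted p = 1.0). Adding the number to the model gave an SE of 0.194 and a limma adjusted p of 0.199 (unadjusted 0.000539). No transcript row at all passed the threshold of 0.05 in either fit (0.0% called), and 7.58% had an unadjusted p under 0.05 with the number. Over all 7 settings of the fit with the number, that one included, the limma adjusted p ran from 0.0652 to 0.79. In RNA of whole cultures, fewer cells that express a gene and less RNA per cell cannot be told apart.

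The p19Arf row (NM_009877, from 88920377 to 88940523 on the same strand) was far higher and differed less between genotypes. It was at 58.9 RPKM in WT1, 27.5 in WT2, 75.4 in KO1 and 32.0 in KO2, that is 1.28-fold higher in KO in replicate 1 and 1.16-fold in replicate 2. Its pooled log2 difference was 0.28 (limma adjusted p = 1.0 with genotype only, 0.746 with the number). The p16Ink4a row made up 14.8% of the Cdkn2a sum in WT1 and 29.8% in KO1, 2.33% in WT2 and 5.60% in KO2. Both rows share their downstream exons, so the split of reads between them is an estimate of the authors' program, and whether the rows differ in their response was not tested. For the gene as a whole the sums were 69.1 RPKM in WT1, 28.2 in WT2, 107 in KO1 and 33.9 in KO2, a log2 difference of 0.63 in replicate 1 and 0.26 in replicate 2 (limma adjusted p = 0.423 with the number).

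**Figure D2:**
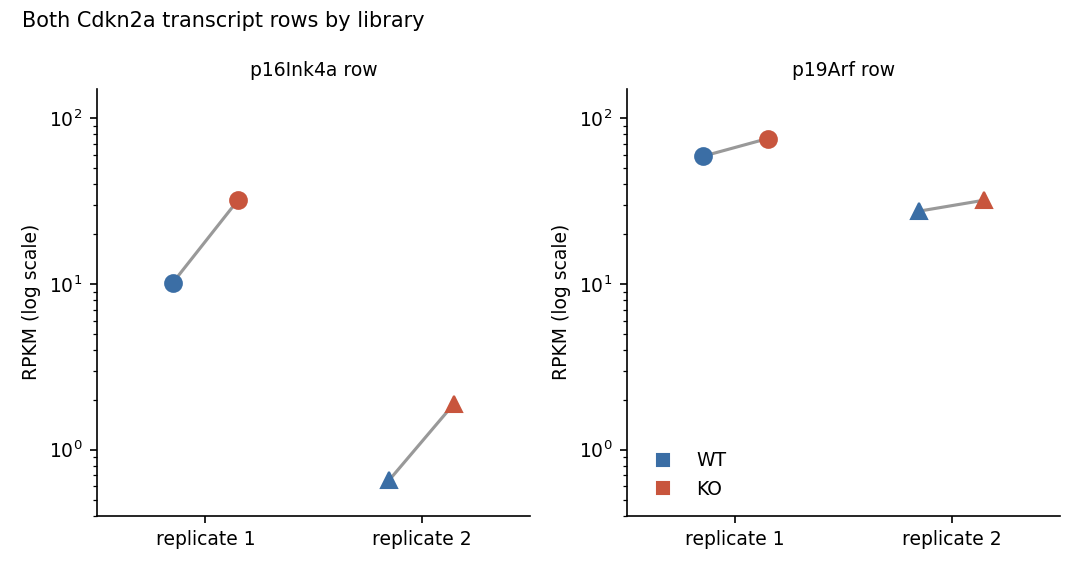
RPKM (log axis) of the p16Ink4a row (left) and the p19Arf row (right) by replicate number; each point is 1 library, blue WT and red KO, and a grey line joins the libraries of 1 number. The p16Ink4a row is at 10.2 and 32.0, then 0.656 and 1.90 RPKM in WT and KO, while the p19Arf row is at 58.9 and 75.4, then 27.5 and 32.0.

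Cdkn2b, next to Cdkn2a on chromosome 4 (88952198 to 88956941 in mm9), did not share that pattern. It was at 52.1 RPKM in WT1, 50.5 in WT2, 47.6 in KO1 and 63.1 in KO2, with the genotypes overlapping and opposite signs within the numbers (log2 -0.13 and 0.32). Its limma adjusted p was 0.946 with the number. Of the other genes of the interval, Mtap, a methionine salvage enzyme, was at 60.7 RPKM in WT1, 30.2 in WT2, 59.5 in KO1 and 31.9 in KO2. Klhl9, a ubiquitin ligase adaptor, was at 20.8, 23.6, 22.7 and 30.6. Elavl2, a neuronal RNA-binding protein, was low, at 1.34, 0.462, 1.94 and 0.668, and Dmrta1 stayed below the filter at 0.0149 to 0.0375 RPKM. None of the 3 tested neighbours passed the threshold between genotypes (0.673% of all genes tested did so with the number). Mtap and Elavl2 fell in replicate 2 (limma adjusted p = 0.000946 and 0.00084), where 11.9% of all genes were called lower.

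Cdkn2c was the member with the lowest KO values relative to WT. It was at 2.69 RPKM in WT1, 6.77 in WT2, 0.982 in KO1 and 5.70 in KO2, so KO was at 0.365 of WT in replicate 1 and 0.841 in replicate 2. WT1 lay below KO2, so the genotypes overlapped, and the limma adjusted p was 0.338 with the number, the lowest of the 10 genes.

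In the p53 arm, Trp53 was the steadiest member: 21.8 RPKM in WT1, 24.4 in WT2, 18.97 in KO1 and 22.9 in KO2. KO was below WT within both numbers, at 0.868 and 0.941 of it, with a pooled log2 difference of -0.14 (limma adjusted p = 0.903 with the number). Mdm2 was at 77.6 RPKM in WT1, 28.8 in WT2, 64.6 in KO1 and 32.4 in KO2, lower in KO in replicate 1 and higher in replicate 2 (log2 -0.26 and 0.17). Neither the factor nor its ubiquitin ligase thus separated the genotypes.

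Cdkn1a differed least of all members between genotypes. Its KO level was 0.989 of WT in replicate 1 and 0.981 in replicate 2, and the pooled log2 difference was -0.02 (SE 0.148, limma adjusted p = 0.989 with the number), a sign that turned to 0.01 under median-ratio scaling and to 0.03 under quantile normalization. Both Cdkn1a rows gave the same picture: the row that starts upstream (NM_001111099) was at 95.0 RPKM in WT1, 53.9 in WT2, 94.7 in KO1 and 53.7 in KO2, and the row that starts downstream (NM_007669) at 186, 105, 183 and 102 in that order. The p16Ink4a row and Cdkn1a, both inhibitors of cyclin-dependent kinases, thus gave KO to WT ratios of 3.13 and 0.989 in replicate 1 and of 2.90 and 0.981 in replicate 2.

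The remaining p53 targets fell into those with 1 direction and those with opposite signs. Plk2, a polo-like kinase, was at 77.9 RPKM in WT1, 32.7 in WT2, 89.0 in KO1 and 42.9 in KO2, 1.14-fold and 1.31-fold higher in KO within the numbers (limma adjusted p = 0.701 with the number). Ccng1 was 0.959 of WT in replicate 1 and 1.38-fold higher in KO in replicate 2. Gadd45a, a DNA damage response protein, was at 9.01 RPKM in WT1, 34.0 in WT2, 7.45 in KO1 and 47.6 in KO2, thus 0.827 of WT in replicate 1 and 1.40-fold higher in KO in replicate 2. Bax, which permeabilises mitochondria in apoptosis, was at 38.8, 30.3, 30.2 and 32.4 RPKM, with WT1 the highest and the other libraries close together.

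None of the 10 members passed the threshold between KO and WT, in the limma fit with genotype only (0.0% of all genes tested called) or in that with the replicate number (0.673% called). At an unadjusted p under 0.05 the first fit gave 0 members (0.368% of all genes) and the second gave 2, Cdkn2a and Cdkn2c (9.1% of all genes). Within both numbers KO was above WT in Cdkn2a and Plk2, 2 members, where 22.5% of all genes did so. It was below WT in Cdkn2c, Trp53 and Cdkn1a, 3 members, where 31.4% of all genes did so, and Cdkn1a moved to the higher side under median-ratio scaling and quantile normalization. The other 5 had opposite signs. Of the pooled log2 differences not yet given, that of Plk2 was 0.29, Ccng1 0.20, Gadd45a 0.11, Cdkn2b 0.10, Mdm2 -0.05, Bax -0.13, Cdkn2c -0.67 and Cdkn2a as a whole 0.45. In replicate 1 KO was below WT in 8 members and in replicate 2 it was above WT in 7, with medians of -0.16 and 0.21 against -0.07 and 0.02 over all genes tested. In no member did all KO libraries lie on 1 side of all WT libraries, which 13.4% of the genes tested did.

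**Figure D3:**
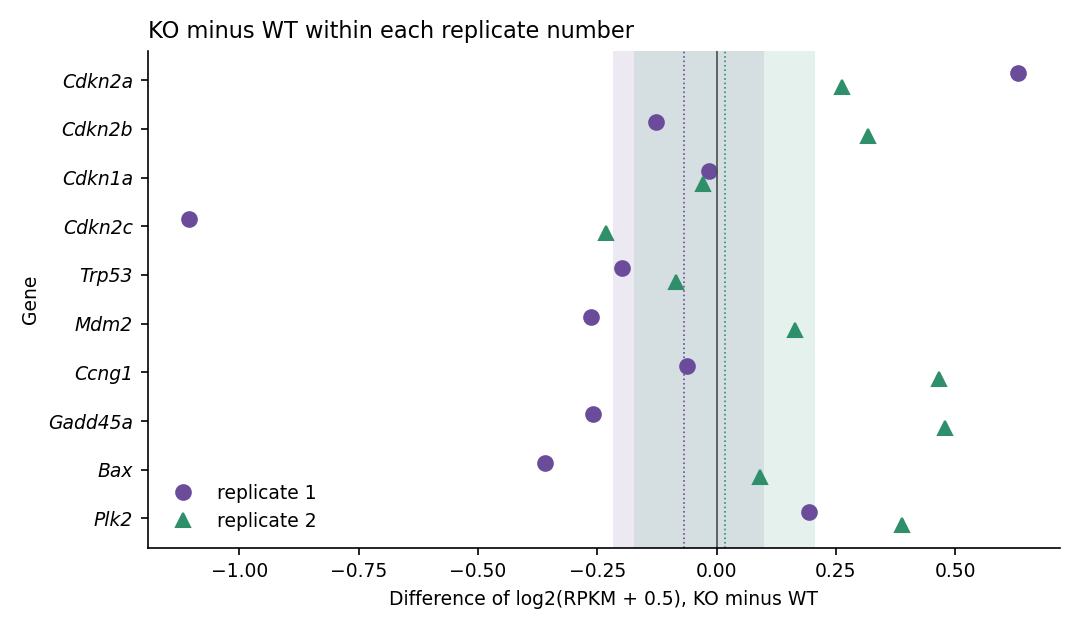
Difference of log2(RPKM + 0.5), KO minus WT, for each member within replicate 1 (circles) and replicate 2 (triangles); shaded bands run from the lower to the upper quartile of all genes tested in each number and dotted lines their medians (-0.07 and 0.02). Cdkn2a and Plk2 lie right of 0 in both numbers and Cdkn2c and Trp53 left, Cdkn1a sits at -0.02 and -0.03 (its sign turns with scaling), and the other 5 straddle 0.

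Most members differed by replicate number. In the limma fit with both terms 7 of the 10 passed the threshold between replicate 2 and replicate 1, where 47.7% of all genes were called. Lower in replicate 2 were 5 members, Cdkn2a, Mdm2, Plk2, Ccng1 and Cdkn1a (11.9% of all genes called lower), and higher were 2, Gadd45a and Cdkn2c (35.8% called higher). Cdkn2b, Trp53 and Bax did not pass. The replicate 1 and replicate 2 libraries did not overlap in 8 members, all but Cdkn2b and Bax, and in 74.5% of all genes, with both replicate 2 libraries lower in 21.2% of genes and higher in 53.3%. The median gene itself was 0.25 higher in replicate 2 on the log2 scale, so the values that follow are also given relative to it. The median over the members was -0.48.

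Among the genes that fell, Cdkn2a had a log2 difference of -1.46 (SE 0.172, limma adjusted p = 7.08e-05), or -1.72 relative to the median gene. Mdm2 fell by 1.20 (relative to the median gene -1.45), Plk2 by 1.14 (-1.40), Ccng1 by 0.97 (-1.23) and Cdkn1a by 0.83 (-1.08), with limma adjusted p-values of 0.00031, 0.000281, 0.000943 and 0.00112. Of these 5, Mdm2, Ccng1 and Cdkn1a carry a p53 half-site in the windows shown above, as do 6 of all 10 members, among them Gadd45a, which rose, and Trp53 and Bax, which were not called. Within Cdkn2a, the p16Ink4a row was at 0.0644 of its replicate 1 level in WT and 0.0594 in KO, against 0.467 and 0.425 for the p19Arf row (limma adjusted p over transcript rows 0.000502 and 0.00372, both 0.0756 with no filter on low values), and 10.4% of transcript rows were called lower. A drop of at least 8-fold in both genotypes was seen in 0.467% of transcript rows.

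Gadd45a rose by the most, with a log2 difference of 2.23 (SE 0.199, limma adjusted p = 2.05e-05), 1.98 relative to the median gene, and was 3.78-fold higher in WT2 than in WT1 and 6.39-fold in KO2 than in KO1. Cdkn2c rose by 1.63 (limma adjusted p = 0.000389), 1.37 relative to the median gene, and by 2.52-fold in WT and 5.80-fold in KO. Cdkn2b (0.18) and Trp53 (0.21) had positive values that became -0.10 and -0.07 under median-ratio scaling, and neither passed in either. Among the p53 targets of the member set, Gadd45a therefore stood on the opposite side to Cdkn1a, Mdm2, Ccng1 and Plk2. Under median-ratio scaling the share of called genes that were higher in replicate 2 went from 75.0% to 51.9%, and under quantile normalization to 50.1%, with the count of members called still 7.

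**Figure D4:**
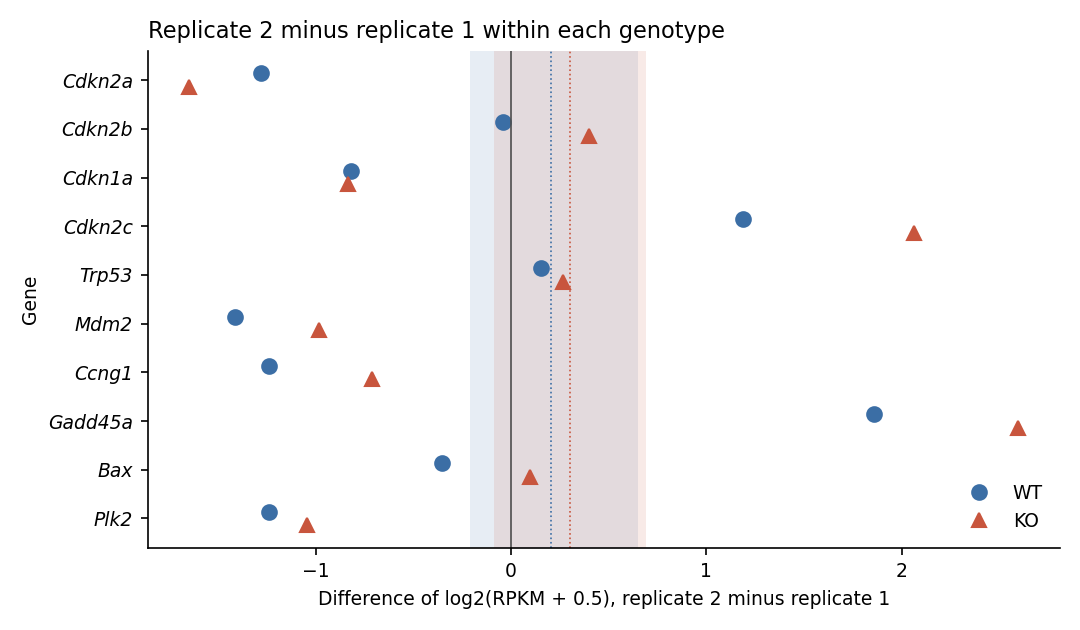
Difference of log2(RPKM + 0.5), replicate 2 minus replicate 1, for each member in WT (circles) and KO (triangles); bands run from the lower to the upper quartile of all genes tested in each genotype and dotted lines their medians. Cdkn2a, Cdkn1a, Mdm2, Ccng1 and Plk2 lie left of the bands in both genotypes, Cdkn2c and Gadd45a right of them, and Cdkn2b and Trp53 within them. Bax lies left of the band in WT and within it in KO.

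Further genes of the pathway were read from lists. Of 34 other p53 targets 32 were tested, and none passed between genotypes in either fit as planned. With the number as a term 1, Gdf15, a stress cytokine, passed under median-ratio scaling and under quantile normalization (limma adjusted p = 0.0353 and 0.00419, beside 0.054 without scaling). Gdf15 was at 4.12 RPKM in WT1, 4.14 in WT2, 1.16 in KO1 and 2.31 in KO2, and was chosen after its values were seen. KO was lower within both numbers in 14, higher in 5 and mixed in 13, beside 31.4% lower and 22.5% higher over all genes tested. The list's median log2 difference was -0.07 beside -0.02 over all genes. Phlda3, an inhibitor of Akt and among the most abundant of the list, was at 195 RPKM in WT1, 158 in WT2, 165 in KO1 and 153 in KO2. By replicate number 8 of the list rose and 6 fell, a split that became 7 and 14 under median-ratio scaling and 6 and 12 under quantile normalization. Without scaling, 35.8% of all genes were called higher in replicate 2 and 11.9% lower. Of 22 regulators of p53, 20 were tested and none passed between genotypes. Within the numbers 3 were higher, 5 lower and 12 mixed, beside the same 22.5% higher and 31.4% lower over all genes. The most abundant were Npm1, a nucleolar chaperone, at 110, 90.1, 91.6 and 129 RPKM, and Setd8, a histone and p53 methyltransferase, at 27.4, 18.8, 22.2 and 18.0.

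The other inhibitors of cyclin-dependent kinases also followed the number. All 4 tested were higher in replicate 2 by the limma test (2 of them under quantile normalization), where 35.8% of all genes were called higher. None passed between genotypes. Cdkn1c, the imprinted inhibitor p57, was at 12.2 RPKM in WT1, 258 in WT2, 20.7 in KO1 and 232 in KO2, a log2 difference of 3.90 between the numbers (limma adjusted p = 4.2e-06). Cdkn1b, the inhibitor p27, was at 9.01, 22.6, 4.98 and 21.5 RPKM, with 1.64 (limma adjusted p = 0.00013). These and Cdkn2c were thus higher where the p16Ink4a row and Cdkn1a were lower. Of 16 cyclins, kinases and RB family genes tested none passed between genotypes. Within both numbers 4 were higher, 6 lower and 6 mixed, beside 22.5% higher and 31.4% lower over all genes. The most abundant, the D-type cyclins Ccnd2 and Ccnd1, were at 191, 121, 201 and 140 and at 112, 62.4, 125 and 56.8 RPKM.

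Of 21 tested regulators of the Ink4-Arf locus, Tbx2 alone passed between genotypes. Tbx2, a T-box repressor of the locus, was at 1.60 RPKM in WT1, 4.47 in WT2, 0.264 in KO1 and 1.62 in KO2, and fell by 1.34 on the log2 scale (-1.46 and -1.23 within the numbers, SE 0.181, limma adjusted p = 0.00736 with the number, 1.0 with genotype only). The call ended with no filter (0.416) and with the highest row of each gene (0.0875). The list had 3 higher, 6 lower and 12 mixed members, beside 22.5% higher and 31.4% lower over all genes, and a median of -0.05. Id3 and Id1, inhibitors of bHLH factors and the most abundant of the list, were at 145, 178, 106 and 136 and at 87.5, 71.2, 53.5 and 49.6 RPKM, lower in KO in both numbers, with limma adjusted p-values of 0.384 and 0.162 with the number.

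Proliferation genes, whose transcripts mark dividing cells, were lower in KO within both numbers in 23 of 26, higher in 0 and mixed in 3, where 31.4% of all genes tested were lower. None passed the adjusted threshold in either fit (1, the mitotic kinase Plk1, did so under quantile normalization with the number), and 19 had an unadjusted limma p under 0.05 with the number (9.1% of all genes). The median log2 difference was -0.71 in replicate 1 and -0.22 in replicate 2. Rrm2, a subunit of ribonucleotide reductase, was at 24.3 RPKM in WT1, 19.4 in WT2, 11.1 in KO1 and 15.7 in KO2, and Pcna, the replication clamp, at 11.9, 21.8, 8.91 and 16.5. By number 21 of the 26 rose in replicate 2 and 0 fell, with 13 rising under median-ratio scaling and 14 under quantile normalization. Among all genes 35.8% were called higher and 11.9% lower without scaling. The KO1 library, with the highest p16Ink4a row, had the lowest summed level of these genes, 89.5 RPKM, beside 163 in WT1, 194 in KO2 and 234 in WT2, which is the reverse of the order of the p16Ink4a row, of the p19Arf row and of Plk2. Rrm2 on its own did not have that order. Cdkn2c and Cdkn1b, which also encode inhibitors of cyclin-dependent kinases, went the other way. Both had the order of the summed proliferation genes, lowest in KO1 and highest in WT2. Inhba and Prss23, given below, have the order of the p16Ink4a row too, and how many of all genes have it was not counted. The replicate numbers alone did not overlap in 74.5% of genes. With 4 libraries no correlation was computed.

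Of 40 secreted factors linked to senescence 33 were tested. Between genotypes Inhba, a subunit of activin, rose and Cxcl2, a neutrophil chemokine, fell, both in the fit that includes the number, where median-ratio scaling called 3 of the list and quantile normalization 4. Inhba was at 125 RPKM in WT1, 4.79 in WT2, 289 in KO1 and 8.29 in KO2 (log2 0.97, within the numbers 1.21 and 0.73, SE 0.179, limma adjusted p = 0.0372 with the number and 1.0 with genotype only), and the call ended at pseudocounts of 0.1 (0.0685) and 1 (0.0717), with no filter (0.481) and with the highest row (0.188). Cxcl2 was at 2.19, 3.93, 0.445 and 1.93 RPKM (log2 -1.19, within the numbers -1.51 and -0.86, limma adjusted p = 0.0288 with the number), and its call ended at a pseudocount of 0.1 (0.0975), with no filter (0.481) and with the highest row (0.156). KO was higher within both numbers in 15, lower in 6 and mixed in 12, beside 22.5% and 31.4% of all genes. Spp1, osteopontin and among the most abundant of the list, was at 562 RPKM in WT1, 304 in WT2, 269 in KO1 and 375 in KO2. The list followed the number more than the genotype, with 18 genes lower and 10 higher in replicate 2 and a median of -1.39 beside 0.25 over all genes. Of all genes 11.9% were called lower and 35.8% higher.

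Markers of other cells moved with the same comparisons. The summed level of 12 macrophage markers was 52.3 RPKM in WT1, 161 in WT2, 6.25 in KO1 and 78.5 in KO2. Of the 10 tested, C1qc, Laptm5 and Fcer1g fell in KO with the number as a term (limma adjusted p = 0.0365, 0.00782 and 0.0172), where 0.673% of all genes were called. Lower within both numbers were 9 of 10, beside 31.4% of all genes, and no listed marker was at 0 in all libraries. Krt19, an epithelial keratin, fell in KO, at 13.4 RPKM in WT1, 9.78 in WT2, 3.56 in KO1 and 2.70 in KO2 (limma adjusted p = 0.00188 with the number), while of 7 epithelial markers 2 were tested. The calls of the macrophage markers ended at a pseudocount of 0.1, that of C1qc also under median-ratio scaling (0.0624), and all 4, Krt19 included, ended with no filter and with the highest row. Quantile normalization called 7 macrophage markers in place of 3. Smooth and skeletal muscle markers, of which Tagln and Acta2 were the most abundant, summed to 2030 RPKM in WT1, 822 in WT2, 1530 in KO1 and 708 in KO2. That sum alone does not show that muscle cells were present. Endothelial markers summed to between 0.611 and 2.34. The part of these cells in the members' values was not tested.

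Relatives of the members were read in the same way. Of 10 BCL2 family genes tested besides Bax none passed between genotypes, and by replicate number 3 rose and 2 fell. The most abundant, the survival factors Bcl2l1 and Mcl1, were at 61.2, 34.9, 43.4 and 33.9 and at 58.1, 60.4, 57.8 and 65.8 RPKM. Of 7 relatives of Gadd45a, Ccng1, Plk2, Trp53 and Mdm2 none passed between genotypes, except that Plk1, as above, did so under quantile normalization with the number. By replicate number 4 of the 7 rose and 1 fell. For both lists the shares over all genes were 35.8% called higher in replicate 2 and 11.9% lower. Gadd45g was at 90.8, 32.1, 59.3 and 32.0 RPKM and fell by 1.18 on the log2 scale in replicate 2 (limma adjusted p = 0.000528), the opposite direction to Gadd45a. Gadd45b was at 22.2, 20.03, 21.2 and 18.5 RPKM.

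**Figure D5:**
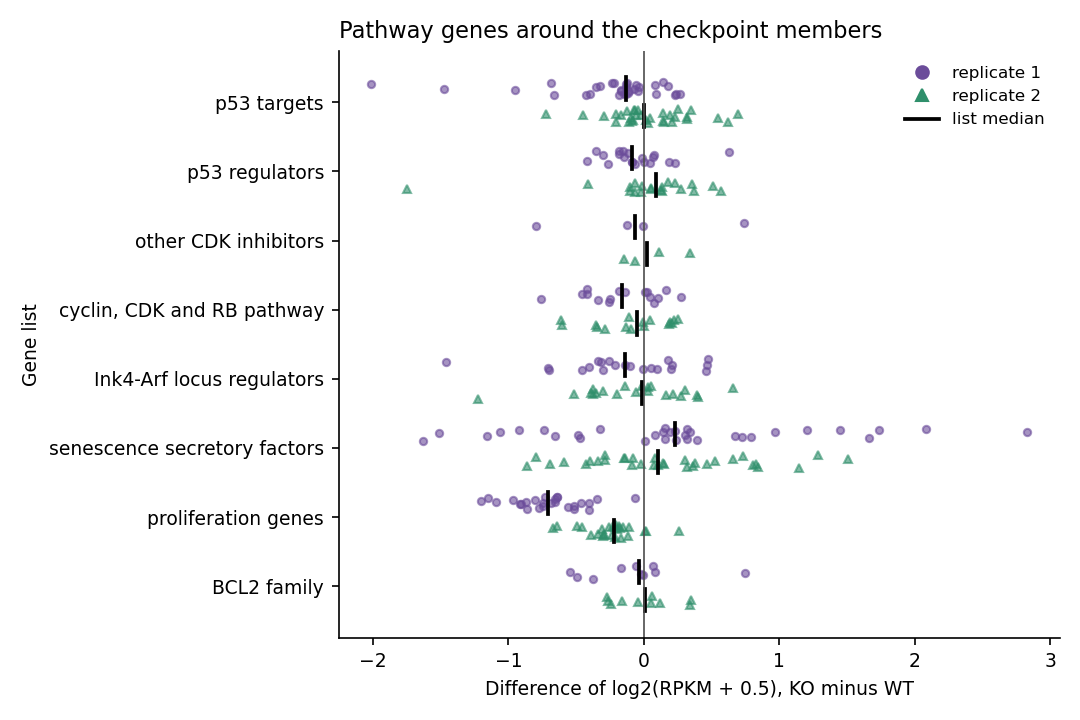
Difference of log2(RPKM + 0.5), KO minus WT, for every tested gene of 8 lists within replicate 1 (purple circles) and replicate 2 (green triangles); black bars are list medians and points are spread vertically to be seen. Proliferation genes lie left of 0 with medians of -0.71 and -0.22, whereas the medians of the p53 targets are -0.13 and 0.00 and the secreted factors spread on both sides.

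The genes whose profile over the 4 libraries was most like that of Cdkn1a, by the smallest maximum difference of centred log2 values among 11148 genes, were Ccdc137 (0.04), 5430417L22Rik (0.04) and Rps6kc1 (0.05). Ccdc137 was at 9.58 RPKM in WT1, 5.37 in WT2, 9.52 in KO1 and 4.97 in KO2. Most like Cdkn2a were Prss23 (0.07), Prdm1 (0.07) and Akap12 (0.07), and Prss23, a serine protease, was at 417, 157, 618 and 198 RPKM. None of these is a member.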

How the data were processed

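Poly-A RNA of 4 MEF libraries, 2 per genotype, was sequenced on a Genome Analyzer IIx, per the labels' protocols. The authors deposited RPKM per RefSeq transcript. Build mm9 and Partek are named in the submitters' processing notes, and Cufflinks in a deposited readme. How reads were aligned, and how those matching several places were counted, is not given in the sources used here. Without a statement on strand, antisense reads cannot be told apart; no member overlaps another gene row.

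Rows were summed per symbol. Of the 16271 genes, the 11149 that reached 0.5 RPKM in 2 or more libraries were fitted with limma 3.58.1 (trend and robust variance) in R 4.3.3 on log2(RPKM + 0.5), a scale that understates changes of low genes. P-values are two-sided and Benjamini-Hochberg adjusted over all genes tested (threshold 0.05). The planned fit had genotype only, and the alternative added the replicate number, which leaves 1 residual degree of freedom, so its p-values rest mainly on variance shared across genes. Transcript rows (13280) were fitted apart. Simulated data kept the replicate shifts of these libraries, with a single noise level for all genes. The 200 planted changes were all in genes with a mean log2 value above 2. At log2 sizes of 1, 2 and 3 the genotype-only fit recovered 0 of them. The fit with the number recovered 200 at each size, with 10 to 14 false calls. A genotype-only fit without calls is thus no evidence that the genotypes are alike. The full recovery by the fit with the number need not hold for lower or noisier genes. A member that this fit does not call is therefore not shown to be unchanged. P-values measure only the spread between these libraries.

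Named genes are the members, Hells, of each list the genes past the threshold and the 2 most abundant, the locus neighbours, and the 3 profiles most like Cdkn1a and Cdkn2a. One gene that this rule names is not reported here. Fibroblast and endothelial lists and the muscle list are given as sums. The members and lists were chosen with earlier results of these data known. RefSeq tables of GRCm38.p6 gave the sequences, and all 13 member rows matched by accession (97.8% of all rows). The files' coordinates are mm9 and were not converted. Alternatives were pseudocount, filter, scaling, choice of row, and leaving out 1 library.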

Additional observations from a re-analysis of the deposited data

How the results depend on the processing

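No member passed between genotypes in the 8 settings with the replicate block. Of these, that with no filter called no gene at all and that with the highest row only 3, so both say little about stability. The other 12 settings, with genotype only, called no gene at all and so say nothing about stability. By contrast 7 members passed between replicate numbers in all 8. With genotype only, 0 genes were called (41 at an unadjusted limma p under 0.05). With the replicate block there were 75 genes, and with the block 37 and 59 at pseudocounts of 0.1 and 1, 70 with a filter of 1 RPKM, 105 with median-ratio scaling, 187 with quantile normalization, 3 with the highest row and 0 with no filter. Genes of the lists called went from 0 to 7 with the block, and with the block to 3, 8, 9, 9 and 16 under the first 5 of these, and 0 under the last 2. The labels do not say that numbers pair the samples; deviations of same-numbered libraries correlated at 0.875 across genes, with 2 pairs. Under scaling, the Cdkn1a genotype difference became 0.011 (median-ratio) and 0.032 (quantile), with and without the block, and the replicate differences of Cdkn2b and Trp53 became -0.10 and -0.069 (median-ratio); the cause was not tested.

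Leaving out each library in turn called 0 genes in the genotype-only fit. The KO minus WT log2 difference then ran from -0.38 to 1.27 for Cdkn2a, -0.11 to 0.30 for Cdkn2b, -0.44 to 0.39 for Cdkn1a, -1.70 to 0.36 for Cdkn2c. It ran from -0.28 to -0.01 for Trp53, -0.76 to 0.66 for Mdm2, -0.42 to 0.82 for Ccng1, -1.19 to 1.41 for Gadd45a, and from -0.31 to 0.042 for Bax, -0.33 to 0.91 for Plk2, -0.55 to 3.21 for the p16Ink4a row, -0.33 to 0.90 for the p19Arf row. These fits leave 1 genotype with a lone library, assumed to vary like the others, and their spread follows the replicate number. The replicate contrast has no residual degrees of freedom then and gave values without a test. Choosing the highest row does not apply to transcript rows. What limits the number of calls in these libraries was not tested beyond the simulated data above.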
